A study of Ovis aries with 18 samples.

Results

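The genes that make miRNAs and carry them to their targets were followed in the testes of Small Tail Han rams. The members were 10 genes, chosen by name: DROSHA, DGCR8, XPO5, DICER1, TARBP2, AGO1, AGO2, AGO3, AGO4 and TNRC6A. All 10 were found among the 23144 rows of the mRNA table, 6 under these symbols and the 4 Argonautes under their older symbols EIF2C1 to EIF2C4. All 10 also passed the filter on low counts, which left 14921 of the 19233 genes of type mRNA for testing. The testes came from untreated animals aged 2, 6 or 12 months, with 3 different rams per age. Tissue from inside the left testis gave a poly(A)-selected mRNA library and a small RNA library per ram, and both libraries of a ram carry its name. Rams are called here by their age and number, as 2-month ram 1. Whole tissue was sequenced, so a mean over all testis cell types was measured, and fewer cells of a type cannot be told apart from less RNA per cell.

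A primary miRNA transcript is first cut in the nucleus by the Microprocessor, which joins the RNase III enzyme DROSHA to its RNA-binding partner DGCR8. XPO5 carries the resulting hairpin into the cytoplasm, where DICER1, with TARBP2 at its side, trims it to a short duplex. One strand is then loaded into an Argonaute protein, and TNRC6 proteins bound to the Argonaute recruit the enzymes that shorten and decay the target mRNA. In the mouse testis, germ cells and Sertoli cells that lack DICER1 are known to fail in sperm production, whereas the related PIWI proteins carry piRNAs, which do not need DICER1.

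The libraries were first compared with the cell type markers, because 3 of them stood apart. The 10 spermatid markers found (of 15 listed) summed to 44.8 CPM in 2-month ram 2, 205 CPM in 2-month ram 3 and 49.4 CPM in 12-month ram 3, against 5033 to 8200 CPM in the other 6 rams. CPM are counts per 1000000 counts after TMM scaling. No spermatid marker found was at 0 in any library. ODF1, a component of the sperm tail, was at 3.33, 25.7 and 1.30 CPM in these 3 rams and at 782 to 1280 CPM elsewhere. The 10 Sertoli markers found (of 11 listed) summed to 14224, 8448 and 11275 CPM in the same 3 rams and to at most 7763 CPM in the others, CLU making up most of the sum, and 1 of them, AMH, was at 0 in 6-month ram 2. Peritubular and smooth muscle markers summed to 1693, 1214 and 1495 CPM in these 3 rams and endothelial markers to 111, 87.1 and 112 CPM, against 362 to 730 CPM and 36.2 to 61.4 CPM in the other rams except 12-month ram 1. The sum of the 10 spermatocyte markers did not separate these rams (304 to 630 CPM over all 9). Single markers did, in both directions, as SYCP2 and MLH3 were lowest in these 3 rams and SPO11 was highest. Across all tested genes, the log2 CPM of the library labelled 12-month ram 3 correlated with 2-month ram 2 at r = 0.98 and with 12-month ram 2 at r = 0.72, and 2-month ram 1 correlated with 6-month ram 3 at r = 0.98 and with 2-month ram 2 at r = 0.70. Another library, 12-month ram 1, held RNA of 2 further kinds. Its 6 peritubular and smooth muscle markers summed to 6343 CPM, against 362 to 1693 CPM elsewhere, and its endothelial markers to 130 CPM. It was also the library with epididymal transcripts, which are not those of the labelled tissue. ADAM7 was at 791 CPM there and at most at 0.58 CPM in the other 8 libraries. WFDC8 was at 335 CPM against at most 0.43 CPM, and CRISP1 at 158 CPM against 0. The whole epididymis and duct list summed to 1902 CPM in this library and to 492 to 1314 CPM elsewhere, where EPPIN made up most of it, and EPPIN itself was lowest here, at 233 CPM. Markers of spermatogonia, Leydig cells and macrophages were found in every library. Spermatogonial markers summed to 184 and 101 CPM in 2-month rams 2 and 3 and to 137 CPM in 12-month ram 3. They summed to 172 CPM in 12-month ram 1 and to 70.6 to 83.8 CPM in the remaining rams. The sums of Leydig and macrophage markers did not separate the 3 rams with few spermatid transcripts. All libraries were kept under their labelled ages. Values with single libraries left out, or with the 3 that have few spermatid transcripts left out, are given beside many of the results below. The closing part gives more of them. No fit left out 12-month ram 1 together with those 3.

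The depth of the mRNA libraries was even, at 8657609 to 10937143 counts, so 3 counts corresponded to between 0.274 and 0.347 CPM. That of the miRNA libraries was not. The total miRNA count was 575449, 2356020 and 1944556 at 2 months, 604545, 720396 and 295282 at 6 months and 1400436, 454517 and 5710499 at 12 months. The 3 largest totals were therefore those of 2-month rams 2 and 3 and 12-month ram 3, the same 3 rams that had few spermatid transcripts. As a share of the clean reads reported for each library, the total was 24.5%, 11.9% and 24.0% in these rams. On that measure 12-month ram 1 (16.1%) and 6-month ram 2 (12.6%) lay above 2-month ram 3, so the match held for raw totals only. Between ages the mean log2 total differed by -1.45 from 2 to 6 months, by 1.61 from 6 to 12 months and by 0.15 from 2 to 12 months. Two-sided exact permutation tests gave p = 0.3, 0.3 and 1.0, in a design of 3 against 3 rams whose smallest p is 0.1. Floors and intervals cover counting error only, because reads amplified without molecular identifiers need not stem from separate molecules.

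**Figure D1:**
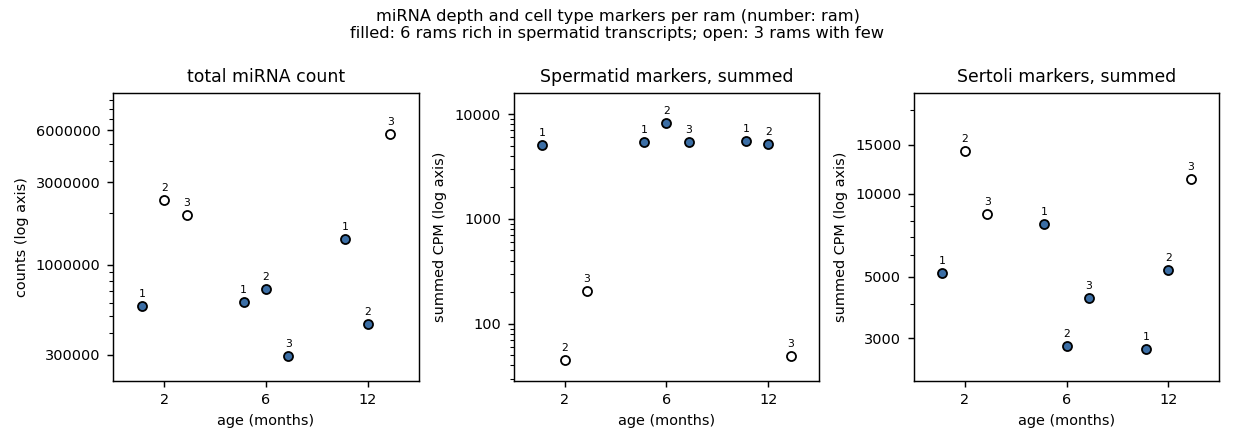
Total miRNA count and summed spermatid and Sertoli marker levels (CPM, all on log axes) for each ram by age in months, with the ram's number above its point. The 3 open points, 2-month rams 2 and 3 and 12-month ram 3, have the largest miRNA totals (1944556 to 5710499 counts), the least spermatid RNA (at most 205 CPM) and the most Sertoli RNA (at least 8448 CPM). By share of clean reads, 2-month ram 3 (11.9%) lies below 12-month ram 1 (16.1%) and 6-month ram 2 (12.6%).

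No member passed both thresholds in any comparison between ages. A call needed both an adjusted p-value below 0.05 and a change of more than 1.5-fold. edgeR called 0 of 10 members, and over all tested genes the share called was likewise 0.0% from 2 to 6 months, 0.0% from 6 to 12 months and 0.0% from 2 to 12 months. At an unadjusted p under 0.05 edgeR had 1, 0 and 0 members in these comparisons, where 4.07%, 6.87% and 2.67% of all genes passed. DESeq2 also called 0 members. It called 0.0505%, 0.0168% and 0.00561% of all genes. The edgeR F test for any difference among the 3 ages had 0 members and 0.0% of all genes under an adjusted p of 0.05. The median log2 fold change of the 10 members was -0.06 from 2 to 6 months, 0.26 from 6 to 12 months and -0.05 from 2 to 12 months, beside medians of -0.06, 0.05 and 0.07 over all tested genes. The standard errors of single members ran from 0.206 for TARBP2 to 0.750 for AGO4 on the log2 scale, so absence of a call does not show equal levels. From 2 to 12 months the log2 fold changes ran from -0.25 ± 0.21 for TARBP2 to 0.79 ± 0.46 for AGO3, with edgeR adjusted p = 0.998 for all 10 members. Scaling by library size in place of TMM moved the median of all genes to -0.42 from 2 to 6 months and to 0.32 from 6 to 12 months, and member fold changes on that scale are to be read against those medians.

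Between rams the members varied about as much as other genes. The coefficient of variation over the 9 libraries was 12.7% for DGCR8 and 13.3% for TARBP2, the steadiest, and 89.9% for AGO4, the most variable. The median over members was 35.9%, beside 40.2% over all tested genes.

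**Figure D2:**
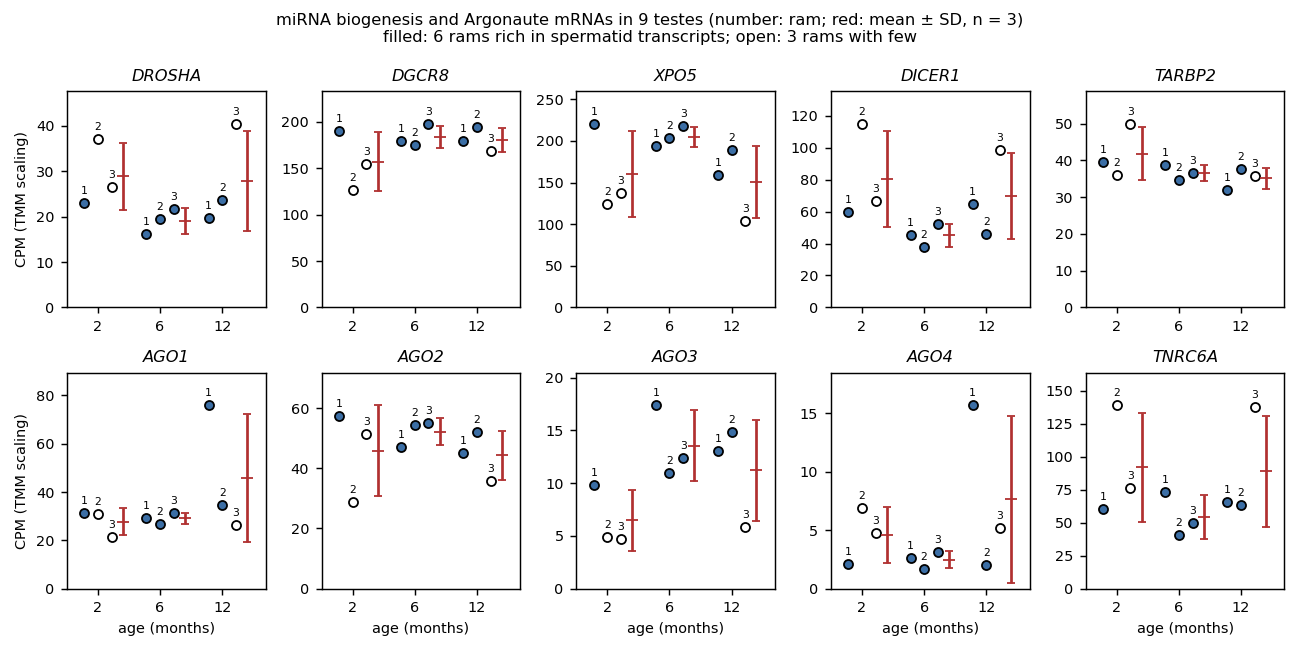
Level of each member in CPM (TMM scaling) for every ram by age in months, with the ram's number above its point and the mean ± SD of 3 rams in red. DROSHA, DICER1 and TNRC6A have their 3 highest points, and DGCR8, XPO5 and AGO3 their 3 lowest, in the open-symbol rams, which have few spermatid transcripts. AGO1 and AGO4 peak in 12-month ram 1.

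**Figure D3:**
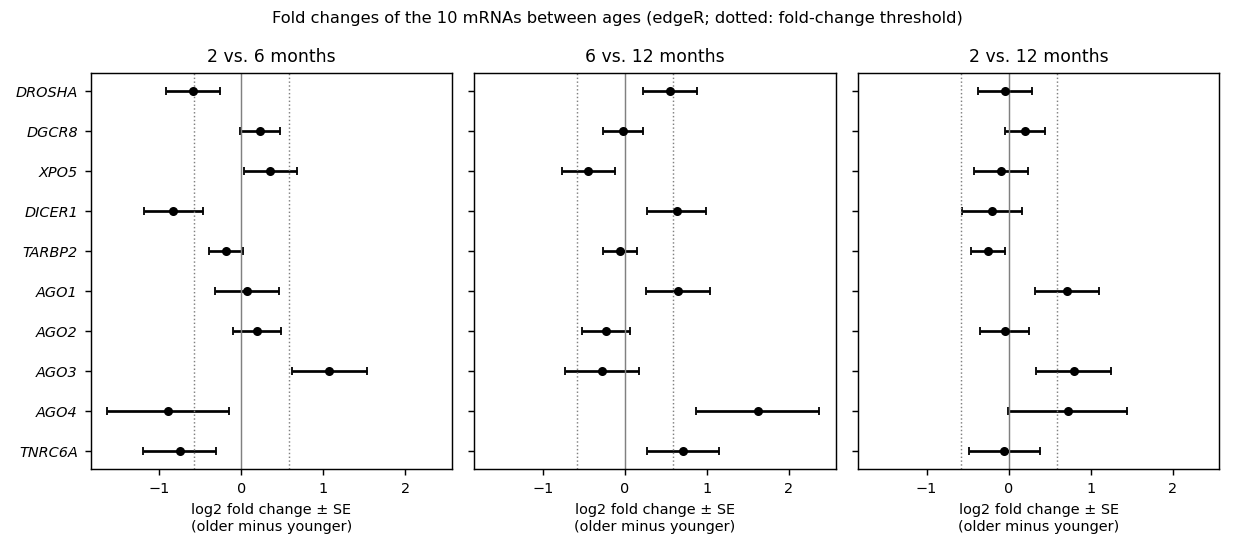
Log2 fold change ± SE (edgeR, older minus younger age, 3 rams per age) of each member in the 3 comparisons, with the threshold of 1.5-fold dotted. AGO3 from 2 to 6 months (1.07) and AGO4 from 6 to 12 months (1.62) lie farthest from 0 on the positive side, and none passed the adjusted p threshold.

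DROSHA, the nuclease of the Microprocessor, was at 23.0, 37.1 and 26.5 CPM at 2 months, at 16.1, 19.4 and 21.8 CPM at 6 months and at 19.7, 23.7 and 40.3 CPM at 12 months. All 3 rams of 6 months lay below all 3 of 2 months, by a narrow margin, and the 12-month rams overlapped with both. The log2 fold change was -0.60 ± 0.33 (SE) from 2 to 6 months and 0.55 ± 0.33 from 6 to 12 months, with edgeR adjusted p = 0.566 and 0.717. The first value was -0.38 without 2-month ram 2 and -0.27 without the 3 rams that have few spermatid transcripts. The second value was 0.18 without 12-month ram 3. Its highest level was in that ram, and its next 2 highest levels were those of 2-month rams 2 and 3.

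DGCR8, which holds the primary transcript in place for DROSHA, was at 190, 127 and 155 CPM at 2 months, at 180, 175 and 197 CPM at 6 months and at 179, 194 and 168 CPM at 12 months. The ages overlapped, and the log2 fold change was 0.23 ± 0.25 from 2 to 6 months and -0.03 ± 0.25 from 6 to 12 months, with edgeR adjusted p = 0.599 and 0.959. Its 3 lowest levels were in 2-month rams 2 and 3 and 12-month ram 3. This order depended on the scaling, since per library size DGCR8 was at 165, 178 and 228 CPM in these rams and at 142 to 175 CPM in the rest. Under edgeR's RLE scaling (relative log expression) these rams did not hold the 3 lowest levels of DGCR8 either. Its direction from 2 to 6 months also turned per library size, to -0.10, and the value was 0.092 without 2-month ram 2 and 0.39 without 2-month ram 1.

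The ratio of DROSHA to DGCR8 counts within a library does not depend on scaling. It was 0.121, 0.293 and 0.171 at 2 months, 0.0898, 0.111 and 0.111 at 6 months and 0.110, 0.122 and 0.240 at 12 months. Hence the 6 rams rich in spermatid transcripts lay within 0.0898 to 0.122, at each of the 3 ages, and the other 3 rams above them. This follows from the single levels, since under TMM scaling those 3 rams had the highest DROSHA and the lowest DGCR8. Of all genes, 14.6% were highest and 24.0% lowest there, and the share of gene pairs so separated was not computed. Because longer transcripts collect more reads, the ratio compares rams and does not rank the genes.

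XPO5, the exporter of the hairpins, was at 220, 124 and 137 CPM at 2 months, at 194, 203 and 217 CPM at 6 months and at 159, 189 and 103.3 CPM at 12 months. All 12-month rams lay below all 6-month rams. The log2 fold change from 6 to 12 months was -0.45 ± 0.33, with an edgeR adjusted p of 0.740, and -0.24 without 12-month ram 3. From 2 to 6 months it was 0.35 ± 0.33 (adjusted p = 0.573). That value was 0.20 without 2-month ram 2, 0.65 without 2-month ram 1, 0.045 per library size and -0.10 without the 3 rams that have few spermatid transcripts. The 3 lowest levels were again those of 2-month rams 2 and 3 and 12-month ram 3 under TMM scaling, but not per library size, where 12-month ram 1 was lower than both 2-month rams.

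DICER1, the enzyme that cuts the hairpin to its mature length, was at 59.5, 115 and 66.5 CPM at 2 months, at 45.2, 37.8 and 52.3 CPM at 6 months and at 64.5, 46.1 and 98.7 CPM at 12 months. The 6-month rams all lay below the 2-month rams and overlapped with the 12-month rams. At 2 months the mean was 80.2 ± 29.9 CPM (SD, n = 3), and at 6 months it was 45.1 ± 7.26 CPM. This log2 fold change was -0.83 ± 0.36, with an edgeR adjusted p of 0.566. Without 2-month ram 2, the highest library, it was -0.48. From 6 to 12 months the log2 fold change was 0.63 ± 0.36 (adjusted p = 0.715), and 0.29 without 12-month ram 3. The 3 highest levels were in the rams with few spermatid transcripts under TMM scaling, under RLE scaling and per library size alike.

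TARBP2, the double-stranded RNA-binding partner of DICER1, was at 39.7, 36.1 and 49.8 CPM at 2 months, at 38.8, 34.5 and 36.5 CPM at 6 months and at 31.9, 37.7 and 35.8 CPM at 12 months. Its log2 fold changes of -0.19 ± 0.21 from 2 to 6 months and -0.06 ± 0.21 from 6 to 12 months had edgeR adjusted p = 0.595 and 0.892, the first being -0.060 without 2-month ram 3. DICER1 counts were 3.17 and 2.76 times TARBP2 counts in 2-month ram 2 and 12-month ram 3, and 1.09 to 2.02 times in the other 7 rams. Under TMM scaling DICER1 had its 3 highest and XPO5 its 3 lowest levels in the rams with few spermatid transcripts. The DICER1 to XPO5 ratio was therefore bound to separate these 3 rams and is no further support. It was 0.921 and 0.485 in 2-month rams 2 and 3 and 0.955 in 12-month ram 3, against 0.186 to 0.406 in the other 6.

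**Figure D4:**
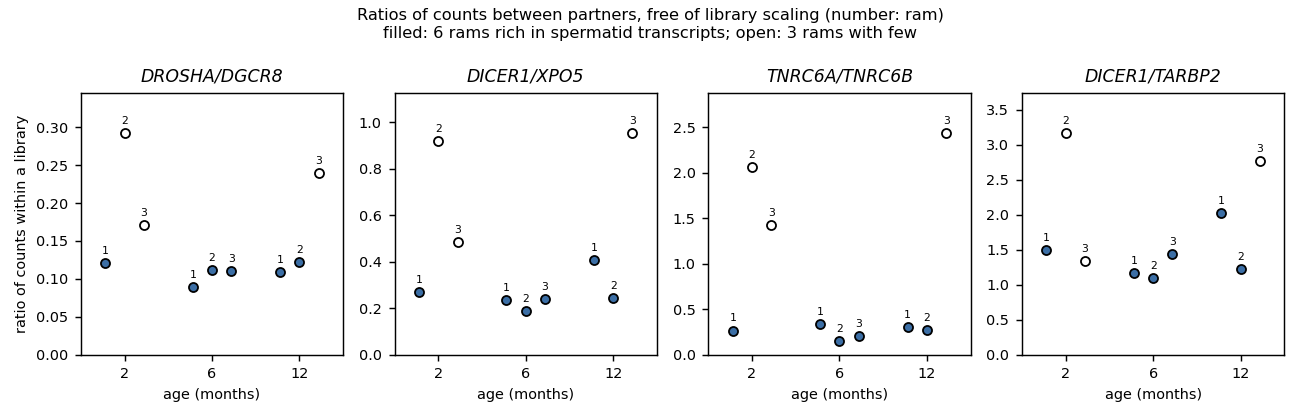
Ratio of counts of gene pairs within each library by age in months, with the ram's number above its point. The 6 filled rams, rich in spermatid transcripts, lie within 0.0898 to 0.122 for DROSHA/DGCR8, 0.186 to 0.406 for DICER1/XPO5 and 0.151 to 0.341 for TNRC6A/TNRC6B, and the 3 open rams lie above them, whereas DICER1/TARBP2 overlaps. Where the open rams lie apart, this follows from the levels of the single genes.

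The 4 Argonautes are close paralogs, and reads that fit more than 1 of them may have been split between them, so their separate values are uncertain. AGO2, the only mammalian Argonaute that is widely known as a slicer, was at 57.4, 28.9 and 51.4 CPM at 2 months, at 47.0, 54.5 and 55.0 CPM at 6 months and at 45.2, 52.0 and 35.8 CPM at 12 months. The ages overlapped, and the log2 fold changes were 0.19 ± 0.29 and -0.23 ± 0.29, with edgeR adjusted p = 0.700 and 0.785. AGO2 had the lowest level in 2-month ram 2, without which the first value was -0.062.

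AGO3 was at 9.81, 4.85 and 4.72 CPM at 2 months, at 17.4, 11.0 and 12.3 CPM at 6 months and at 13.0, 14.8 and 5.80 CPM at 12 months. All 6-month rams lay above all 2-month rams. At 2 months the mean was 6.46 ± 2.90 CPM (SD, n = 3), and at 6 months it was 13.6 ± 3.38 CPM. AGO3 had the lowest p of the members from 2 to 6 months, with a log2 fold change of 1.07 ± 0.46 and an edgeR adjusted p of 0.566. From 6 to 12 months its log2 fold change was -0.28 ± 0.45 (adjusted p = 0.814), and 0.04 without 12-month ram 3. Its 3 lowest levels were in the rams with few spermatid transcripts under each of the 3 scalings. AGO3 made up 9.77%, 6.79% and 5.76% of the Argonaute counts at 2 months, 18.1%, 11.6% and 12.1% at 6 months and 8.70%, 14.3% and 7.92% at 12 months.

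AGO1 and AGO4 stood out in a single library. AGO1 was at 31.1, 30.9 and 21.2 CPM at 2 months, at 29.1, 26.9 and 31.4 CPM at 6 months and at 75.9, 34.6 and 26.4 CPM at 12 months. AGO4 was at 2.11, 6.92 and 4.72 CPM, at 2.58, 1.69 and 3.11 CPM and at 15.6, 2.04 and 5.19 CPM at these ages, from 15 to 125 counts per library. Both were highest in 12-month ram 1, the library with the most smooth muscle RNA (6343 CPM) and with the epididymal transcripts ADAM7 (791 CPM), WFDC8 (335 CPM) and CRISP1 (158 CPM). The part of either in these levels was not tested. From 6 to 12 months the log2 fold change was 0.65 ± 0.39 for AGO1 and 1.62 ± 0.75 for AGO4, with edgeR adjusted p = 0.717 and 0.710. Without 12-month ram 1 these values were 0.07 and 0.57. AGO1 took 50.7% (Wilson 95% interval 47.8% to 53.5%) of the Argonaute counts in 12-month ram 1, and from 25.8% to 43.2% in the other 8 rams, while AGO2 took 30.2% there and from 40.4% to 62.7% elsewhere. These are shares of counts, which compare rams and do not rank the genes.

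TNRC6A, the scaffold through which Argonautes reach the deadenylases, was at 60.6, 139 and 76.4 CPM at 2 months, at 72.8, 40.6 and 49.9 CPM at 6 months and at 65.7, 63.2 and 137 CPM at 12 months. The ages overlapped. The log2 fold change was -0.75 ± 0.44 from 2 to 6 months and 0.70 ± 0.44 from 6 to 12 months, with edgeR adjusted p = 0.566 and 0.717, and -0.33 and 0.24 without the highest library of each comparison, 2-month ram 2 and 12-month ram 3. Its paralog TNRC6B had the opposite order, at 67.3, 53.6 and 56.3 CPM in 2-month rams 2 and 3 and 12-month ram 3 and at 214 to 269 CPM in the other 6 rams. The ratio of TNRC6A to TNRC6B counts was thus 2.06, 1.42 and 2.44 in these 3 rams and 0.151 to 0.341 in the others, with no overlap. TNRC6B was singled out after its values were seen.

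Between ages, members whose rams did not overlap were few, and their number is set beside all genes. From 2 to 6 months AGO3 was higher in all older rams (1 of 10, where 9.72% of all genes were), and DROSHA and DICER1 were lower in all (2 of 10, where 8.98% were). From 6 to 12 months no member was higher in all older rams (all genes 7.35%) and XPO5 was lower in all (1 of 10, all genes 5.62%). From 2 to 12 months 0 members were higher or lower in all older rams, where 2.05% and 1.92% of all genes were. The grouping by the largest miRNA totals, which was chosen after the levels were known, gave larger counts for members and for all genes. DROSHA, DICER1 and TNRC6A (3 of 10) had their 3 highest levels in 2-month rams 2 and 3 and 12-month ram 3, beside 14.6% of all genes. DGCR8, XPO5 and AGO3 (3 of 10) had their 3 lowest levels there, beside 24.0% of all genes. Under RLE scaling the highest were the same 3 members, beside 15.2% of all genes. The lowest were then XPO5 and AGO3 alone (2 of 10), beside 23.2%. Per library size, the highest were DROSHA, DICER1, TARBP2 and TNRC6A, beside 32.2% of all genes, and AGO3 alone was lowest, beside 16.6%. The same 3 rams had the largest miRNA totals, the least spermatid RNA and the most Sertoli RNA. Apart from 12-month ram 1, they also had the most smooth muscle and endothelial RNA and the largest sums of spermatogonial markers. These measures cannot be told apart in the 9 rams. By share of clean reads, however, 2-month ram 3 was not among the 3 highest.

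Libraries were left out in 2 ways. Without 2-month ram 1 and 12-month ram 3, every 2-month ram left had few spermatid transcripts and every older ram was rich in them, so age and spermatid RNA cannot be told apart in that fit. There AGO3 passed both thresholds, with a log2 fold change of 1.5 ± 0.35 from 2 to 6 months and 1.54 ± 0.37 from 2 to 12 months and edgeR adjusted p = 0.0279 and 0.0357. DICER1 was at -1.0 ± 0.32 from 2 to 6 months in that fit, with an adjusted p of 0.0698. In the same fit 15.3% of all genes passed from 2 to 6 months, 0.0% from 6 to 12 months and 12.0% from 2 to 12 months, so 1 of 10 members was not more than the share of all genes. These libraries were left out for their spermatid RNA, after it was seen, which makes the calls a description of that choice and no independent test of age. When instead the 3 rams with few spermatid transcripts were left out, 0 members passed, AGO3 was at 0.47 ± 0.45 and DICER1 at -0.40 ± 0.33 from 2 to 6 months, and the 2-month group was then 1 ram, assumed to vary like the others.

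The total miRNA count was also set against the members within the 6 rams rich in spermatid transcripts, because the 9 rams fall into separate clusters and a pooled coefficient was not read. Pearson's r with the log2 total ran from -0.78 for XPO5 (exact p = 0.097, adjusted 0.554) to 0.70 for AGO1 (exact p = 0.196, adjusted 0.559). Adjusted over all tested genes, exact permutation tests over all 720 pairings gave 0 of 10 members and 0.0% of all genes under 0.05, and before adjustment 0 members and 8.64% of all genes. DGCR8 had r = -0.76 (exact p = 0.051, adjusted 0.554) and Spearman's rho = -0.94 (exact p = 0.017, adjusted 0.793). Per library size its r was -0.37 (exact p = 0.390, adjusted 0.684). With the share of clean reads in place of the total, 2 members were under 0.05 before adjustment, beside 7.68% of all genes. They were DGCR8 (r = -0.85, exact p = 0.033, adjusted 0.620) and TARBP2 (r = -0.85, exact p = 0.0375, adjusted 0.620). After adjustment 0 members passed on that measure. The values that follow are again for the log2 total. Spearman's rho was -0.09 for AGO1 (exact p = 0.919, adjusted 0.994) and -0.49 for XPO5 (exact p = 0.356, adjusted 0.926). Without 12-month ram 1 and 6-month ram 3, the 2 rams farthest from the median total, only 4 rams were left. There r was -0.92 for DGCR8 (exact p = 0.083), and it turned to -0.99 for AGO1 (exact p = 0.042) and to 0.41 for XPO5 (exact p = 0.583). The relations of AGO1 and XPO5 thus rested on these 2 rams. With 4 rams the smallest possible p is 0.042, and 0 members and 0 of all genes passed after adjustment.

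The genes whose log2 CPM was most like that of each member over the 9 libraries were named as a description. They share the libraries, their depth and the split of 3 rams from 6. XPO5 was most like PPP1R13B and CHMP3 (r = 0.996 and 0.989), AGO2 like NUP210L and SPEF1 (r = 0.996 and 0.994), AGO4 like KIF1C and IL11RA (r = 0.996 and 0.993) and DICER1 like TARBP1 and ANKRD17 (r = 0.993 and 0.987). TNRC6A was most like KDM5C and CTCF (r = 0.989 and 0.985), DROSHA like NARS and GPRASP1 (r = 0.986 and 0.966), AGO1 like ACTN1 and IQGAP1 (r = 0.979 and 0.974) and AGO3 like SAMD3 and LOC101104808 (r = 0.973 and 0.970). The patterns of DGCR8 (CENPF and WDR87, r = 0.956 and 0.946) and TARBP2 (ZNF777 and C9H8orf82, r = 0.956 and 0.939) were shared least, with 1 gene each over r = 0.95, against 380 genes for AGO2 and 170 for TNRC6A.

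Partners of the members were read from the same fit as 6 lists. Of 76 partner genes tested, 0 passed both thresholds in any comparison, and 1, 0 and 0 had an unadjusted p under 0.05 in edgeR, beside the 4.07%, 6.87% and 2.67% of all genes. The median log2 fold change of these genes was 0.13 from 2 to 6 months, -0.14 from 6 to 12 months and -0.09 from 2 to 12 months, and 41, 27 and 30 of them were positive, beside medians of -0.06, 0.05 and 0.07 and positive shares of 47.3%, 53.0% and 57.0% over all genes. In each list the genes farthest from 0 are named next, all with edgeR adjusted p of at least 0.566.

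Among 8 Microprocessor helpers, DDX5, an RNA helicase of the complex, had the highest log2 fold change from 2 to 6 months (0.46 ± 0.36) and its relative DDX17 the lowest (-0.53 ± 0.32). SMAD3 was highest from 6 to 12 months (0.67 ± 0.46) and NCBP1, a subunit of the cap-binding complex, lowest (-0.26 ± 0.33). Among 4 export genes, RANGAP1, which activates the GTPase of RAN, was farthest above 0 from 2 to 6 months (1.44 ± 1.16), at 28.7, 50.9 and 32.6 CPM in the 3 rams with few spermatid transcripts and 395 to 588 CPM in the others. XPO1, the exporter of proteins and other RNAs, had the order opposite to XPO5, at 197, 105 and 157 CPM in those 3 rams and 64.7 to 95.5 CPM elsewhere (-0.81 ± 0.43 from 2 to 6 months and 0.42 ± 0.43 from 6 to 12 months).

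Of 10 Dicer partners and RNA-modifying genes, DIS3L2, a nuclease of uridylated precursors, was highest from 2 to 6 months (0.70 ± 0.41) and ADAR, the adenosine deaminase of double-stranded RNA, lowest (-0.69 ± 0.41). ADAR was highest from 6 to 12 months (0.65 ± 0.41) and LIN28B, which blocks let-7 maturation, lowest (-0.78 ± 0.47). Of 11 Argonaute partners, TNRC6B was highest (1.05 ± 0.66) and SND1 lowest (-0.98 ± 0.44) from 2 to 6 months, and SND1 was highest (0.76 ± 0.44) and TNRC6B lowest (-0.53 ± 0.66) from 6 to 12 months. SND1, a nuclease found with the silencing complex, was at 442, 312 and 361 CPM in the 3 rams with few spermatid transcripts and at 116 to 263 CPM elsewhere.

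Of 21 silencing effectors, the decapping enhancer EDC3 was highest from 2 to 6 months (1.02 ± 0.47) and the deadenylase subunit CNOT6L lowest (-1.11 ± 0.49). CNOT6L was highest from 6 to 12 months (1.04 ± 0.49) and DCP1B lowest (-0.71 ± 0.84). All 22 PIWI pathway genes were tested. PIWIL4 held the only unadjusted p under 0.05 among the partners, with a log2 fold change of -2.07 ± 0.88 from 2 to 6 months and an edgeR adjusted p of 0.566. It was at 4.54, 26.6 and 8.14 CPM at 2 months, at 2.79, 1.81 and 4.73 CPM at 6 months and at 2.63, 4.29 and 16.7 CPM at 12 months, and overlapped between ages. GTSF1, needed by PIWI proteins, was highest from 2 to 6 months (1.55 ± 0.90). From 6 to 12 months PIWIL4 was highest (1.35 ± 0.87) and TDRD6 lowest (-0.85 ± 0.69).

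From 2 to 12 months the adjusted p was 0.998 for all partners named. The highest and lowest log2 fold changes were those of NCBP2 (0.49 ± 0.23) and SRSF3 (-0.16 ± 0.25) among the helpers, RANGAP1 (0.65 ± 1.14) and XPO1 (-0.39 ± 0.43) in export, DIS3L2 (0.72 ± 0.41) and PRKRA (-0.59 ± 0.43) among Dicer partners and TNRC6B (0.52 ± 0.66) and TRIM71 (-0.51 ± 0.37) among Argonaute partners. In the remaining lists they were those of EDC3 (0.42 ± 0.46) and DCP1A (-0.43 ± 0.29) and of GTSF1 (0.80 ± 0.89) and PIWIL4 (-0.73 ± 0.84).

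Several of these partner values rested on single rams. Without 2-month ram 2, the log2 fold change from 2 to 6 months was -0.39 for XPO1, -0.64 for SND1 and -1.03 for PIWIL4. Without 12-month ram 3, that from 6 to 12 months was -0.058 for XPO1, 0.48 for SND1 and 0.16 for PIWIL4. RANGAP1 was at 3.70 from 2 to 6 months without 2-month ram 1 and at 0.077 without the 3 rams that have few spermatid transcripts, and TNRC6B was at 2.00 and 0.078 in these fits.

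Mature miRNAs with a known tie to a member were read from the small RNA libraries. The sequences are those of the deposited miRNA table, 5′ to 3′, with the seed (bases 2 to 8) in capitals. The hairpin of miR-451 is cut by AGO2 and skips DICER1, those of miR-320 and miR-484 skip the Microprocessor, miR-877 comes from a spliced intron, and the miR-1306 hairpin lies in the DGCR8 transcript itself. They are shown because each bypasses, or is embedded in, a member:
miR-451-5p: aAACCGTTaccattactgagtt
miR-320-3p: aAAAGCTGggttgagagggcg
miR-484: tCAGGCTCagtcccctcccgat
miR-877: gTAGAGGAgatggcgcaggggac
miR-1306-5p: cCACCTCCcctgcaaacgtcca

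The let-7 miRNAs and the pair miR-103 and miR-107 are known to act on the DICER1 mRNA. They are shown because the let-7 members share the seed GAGGTAG, and miR-103 and miR-107 the seed GCAGCAT, with few differences outside it:
let-7a: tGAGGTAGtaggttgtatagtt
let-7b: tGAGGTAGtaggttgtgtggt
let-7c: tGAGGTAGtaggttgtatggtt
let-7f: tGAGGTAGtagattgtatagt
let-7g: tGAGGTAGtagtttgtacagt
let-7i: tGAGGTAGtagtttgtgctgtt
miR-103: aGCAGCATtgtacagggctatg
miR-107: aGCAGCATtgtacagggctatc

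None of the listed miRNAs passed both thresholds, nor did any of the 969 miRNAs tested, so the share called was 0.0% from 2 to 6 months, 0.0% from 6 to 12 months and 0.0% from 2 to 12 months. Levels are CPM after upper-quartile scaling. miR-451-5p was at 3290, 4064 and 3196 CPM at 2 months, at 9885, 7601 and 3666 CPM at 6 months and at 4722, 3499 and 2510 CPM at 12 months. At 6 months 2 rams lay above all others and the third among them. Its log2 fold change was 1.0 ± 0.42 from 2 to 6 months and -0.98 ± 0.42 from 6 to 12 months, with edgeR adjusted p = 0.738 and 0.484. miR-451 is abundant in red blood cells, and of 5 blood markers listed only HBM and ALAS2 were in the mRNA table, both at 0 in all 9 libraries. The part of blood in these levels was not tested.

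miR-320-3p was at 1534, 2942 and 2080 CPM at 2 months, at 2028, 1968 and 1980 CPM at 6 months and at 2969, 1848 and 3244 CPM at 12 months, and overlapped between ages. miR-484 was at 1057, 1556 and 1372 CPM, at 1146, 804 and 1185 CPM and at 1158, 1263 and 1965 CPM. It was highest in 12-month ram 3 and next in 2-month rams 2 and 3. The share of all tested miRNAs with this order was not computed. The other miRNAs processed without DGCR8 did not have it. For miR-320-3p, 12-month ram 1 lay above these 2-month rams, and for miR-877, 6-month ram 3 (113 CPM) lay above 12-month ram 3 (97.8 CPM). miR-877 was at 48.1 to 140 CPM in all rams. The log2 fold changes of these 3 miRNAs between ages lay between -0.35 and 0.48, with edgeR adjusted p of at least 0.643. miR-1306-5p was at 50.3, 101 and 92.9 CPM at 2 months, at 97.0, 115 and 123 CPM at 6 months and at 104, 105 and 143 CPM at 12 months. Under upper-quartile scaling all 12-month rams lay above all 2-month rams, by a narrow margin. The log2 fold change between these ages was 0.53 ± 0.33, with an edgeR adjusted p of 1.0, and 0.16 without 2-month ram 1. Its counts were 38, 247 and 226 at 2 months and 91, 48 and 694 at 12 months. Per library size 12-month ram 1 lay below all 2-month rams, so the 2 ages overlapped. The DGCR8 mRNA overlapped between these ages. The share of all tested miRNAs whose rams did not overlap between them was not computed.

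let-7a was the most abundant of the DICER1-related miRNAs, at 11788, 23998 and 16713 CPM at 2 months, at 18894, 32635 and 13393 CPM at 6 months and at 20057, 16247 and 21839 CPM at 12 months. Rows of the let-7 family and miR-98 together held 3.11% to 6.92% of the miRNA counts of a library, lowest in 12-month ram 1 and highest in 6-month ram 2. These shares are unscaled, unlike the CPM. The upper-quartile scaling factor was 0.625 in 12-month ram 1, which raises its CPM, and 0.850 to 1.31 in the other libraries. let-7b, c, f, g and i had log2 fold changes between -0.18 and 0.66 in the 3 comparisons. miR-103 was at 4407, 5574 and 4792 CPM at 2 months, at 6161, 4976 and 7477 CPM at 6 months and at 15679, 6483 and 6616 CPM at 12 months. Under upper-quartile scaling all 12-month rams lay above all 2-month rams, with a log2 fold change of 0.96 ± 0.40 and an edgeR adjusted p of 1.0. Without 12-month ram 1 the fold change was 0.40. Per library size the ages overlapped, as 12-month ram 3 (32122 of 5710499 counts) lay below all 2-month rams. Here too the share of all tested miRNAs without overlap was not computed, so this is a description of miR-103 alone. Both miR-103 and miR-107 (3076 CPM) were highest in 12-month ram 1, the ram in which AGO1, AGO4 and the smooth muscle and epididymal transcripts peaked. The low scaling factor of this library enlarged that peak. Rows of miR-103 and miR-107 together held 1.17% of the unscaled miRNA counts there and 0.63% to 0.98% in the other rams. miR-107 was at 1094 to 1978 CPM in the other 8 rams.

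**Figure D5:**
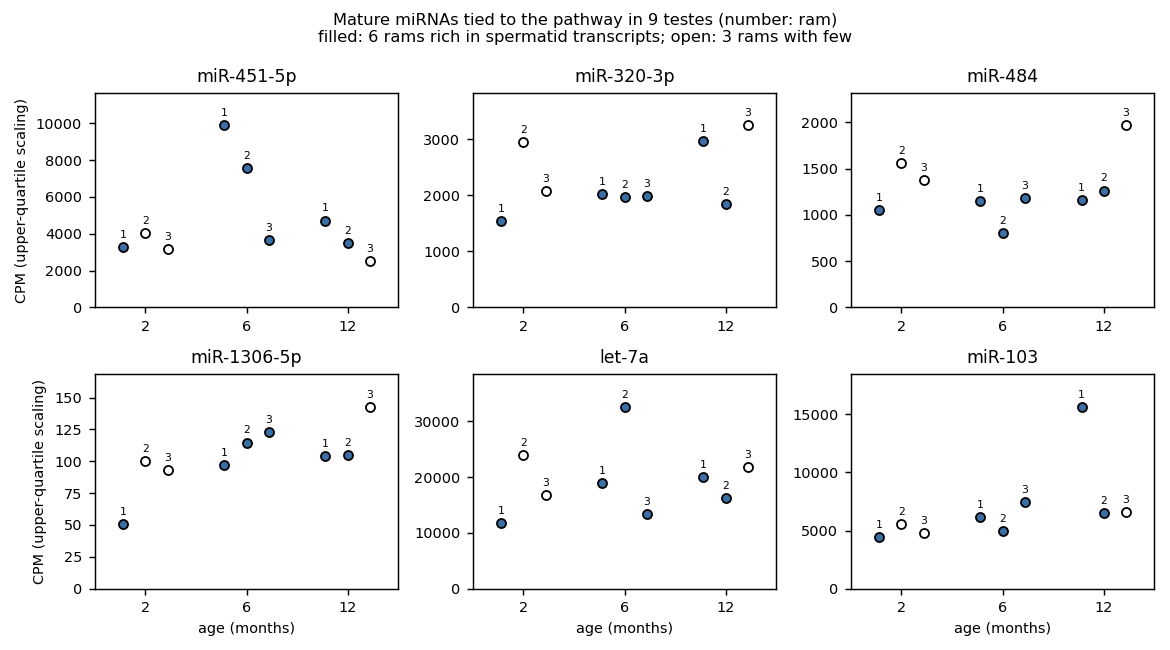
Level in CPM (upper-quartile scaling) of 6 mature miRNAs tied to members of the pathway, for each ram by age in months, with the ram's number above its point; open symbols mark the 3 rams with few spermatid transcripts. miR-451-5p is highest in 6-month rams 1 and 2 (9885 and 7601 CPM), miR-484 in 12-month ram 3 (1965 CPM) and miR-103 in 12-month ram 1 (15679 CPM).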

How the data were processed

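mRNA and small RNA libraries of 9 rams were analysed. The authors deposited 2 tables of raw counts, 1 row per gene or mature miRNA, without normalization. Per the labels the genome build was Oar_v3.1 and BWA was used. According to the methods, small RNA reads were assigned first to known sheep miRNAs, then to miRNAs predicted by miRDeep from the sheep genome, and the rest to miRNAs of human, rat and mouse. The mRNA counter and its use of strand are not given in the sources used here. Every value column belonged to a sample. Ages and ram names were taken from the labels, and the mRNA and miRNA libraries of a ram were matched by name.

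Counts of genes of type mRNA were scaled by TMM, and those of miRNAs by upper quartile after the study's methods, and filtered by age in R 4.3.3 with edgeR 4.0.16. One quasi-likelihood fit per assay held all 9 libraries, with Benjamini-Hochberg adjustment over all tested rows. Calls required an adjusted p-value below 0.05 and more than a 1.5-fold change. Log2 CPM used a prior of 0.5. Correlations with the total miRNA count were tested by exact permutation for every gene. They were planned over 9 rams with 362880 pairings and read over 6, as the libraries fell into clusters. Alternatives were other scalings, DESeq2 1.42.0, no filter, fewer libraries, all gene types, a replicate block and each ram left out. The tests were tested on simulated data. Python 3.11.15 with pandas 2.3.3, numpy 2.4.6, scipy 1.17.1 and matplotlib 3.10.9 made tables and plots.

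The members, lists, gene pairs and tests were chosen with earlier results of these data known. Named partners are those with the largest and smallest fold change in each list, genes most like a member are the best 2 by Pearson's r, and listed miRNAs are the 8 most abundant per list past the filter. Of the members, 9 were found in the RefSeq gene table of assembly ARS-UI_Ramb_v3.0, used for names alone. Transcript lengths, promoters, proteins and coordinates were not analysed here, so mRNA levels were not ranked between genes, and sums, shares and ratios are of counts.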

Additional observations from a re-analysis of the deposited data

How the results depend on the processing

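No alternative with all 9 libraries called a member between ages. Of 510 member fold changes under alternatives, 51 turned direction, and the cause was not tested. Per library size DGCR8 was at -0.10, AGO1 at -0.28 and AGO2 at -0.13 from 2 to 6 months, and DGCR8 at 0.21 and TARBP2 at 0.19 from 6 to 12 months. Fitted on the 6 libraries of the ages compared, DGCR8 was at 0.0781 and TARBP2 at 0.0523 from 6 to 12 months. The next 2 sets of libraries left out were chosen after seeing the data. Without 2-month ram 1 and 12-month ram 3, 1 member, AGO3, was called from 2 to 6 months (1.5) and 1, AGO3, from 2 to 12 months (1.54), and directions turned for DGCR8 (0.0251) and AGO3 (0.0390) from 6 to 12 months and for XPO5 (0.41) and AGO2 (0.28) from 2 to 12 months. Without 2-month rams 2 and 3 and 12-month ram 3 they turned for DGCR8 (-0.0456), XPO5 (-0.10), AGO1 (-0.0944), AGO2 (-0.14) and AGO4 (0.22) from 2 to 6 months, DGCR8 (0.00898) and AGO3 (0.0239) from 6 to 12 months, and DGCR8 (-0.0366) and TNRC6A (0.0790) from 2 to 12 months.

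Leaving out each ram gave log2 fold changes from 2 to 6 months of -0.14 to 0.17 for AGO1 and -0.0619 to 0.38 for AGO2. From 6 to 12 months they were -0.44 to 0.0372 for AGO3, -0.0278 to 0.12 for DGCR8 and -0.0742 to 0.10 for TARBP2. From 2 to 12 months they were -0.30 to 0.15 for AGO2, -0.33 to 1.14 for AGO4, -0.54 to 0.15 for DICER1, -0.41 to 0.17 for DROSHA, -0.51 to 0.37 for TNRC6A and -0.31 to 0.21 for XPO5, and -0.79 to 1.03 for the log2 total miRNA count. Members whose rams did not overlap then numbered 3 to 7, 1 to 4 and 0 to 2 from 2 to 6, 6 to 12 and 2 to 12 months, and 2 from 6 to 12 months per library size (all genes 12.4%). The shares of all genes were 21.4% to 63.5%, 15.7% to 47.8% and 6.65% to 20.98%. With fewer rams, non-overlap is easier to reach by construction.

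Over all 9 rams, 3 members passed the adjusted permutation test against the total miRNA count, as did 33.1% of all genes. With known sheep miRNAs alone 3 members passed (all genes 32.6%), per library size 4 (50.8%), and 0 to 4 with each ram left out (0.0% to 37.5%). By Spearman's rho 0 members passed (all genes 0.0%), and by share of clean reads 0 (0.0134%). With age means subtracted 0 passed (0.0%), as without 12-month ram 3 and 2-month ram 2 (0.0%). With a replicate block, edgeR called 0 members in any comparison and 0 of all genes, with the smallest member adjusted p at 0.592, 0.759 and 1.0. Same-numbered rams deviated with correlations of -0.84 to 0.50, so the numbers were not read as pairs. AGO4, with 15 to 125 counts per library, was limited most by depth.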
